A study of Mus musculus with 12 samples.

Results

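The interaction of genotype and LPS is the difference between 2 differences: the change that 4 h of LPS brought about in selenoprotein-deficient macrophages, minus the change it brought about in control macrophages. All 12 arrays of the series enter it, 3 of each of 4 groups, and 18193 genes were measured. Bone marrow-derived macrophages (BMDMs) were grown for 7 days with M-CSF, the growth factor of the macrophage lineage, from female C57BL/6 mice. Mice of both genotypes carried 2 floxed alleles of Trsp, the gene of the tRNA that inserts selenocysteine. The ΔTrspM mice (Trspfl/fl-LysM-Cre+/-) also carried 1 copy of Cre under the lysozyme M promoter, which is active in macrophages and other myeloid cells, and the control mice (Trspfl/fl-LysM-Cre-/-) carried no Cre, so the presence of Cre and the loss of Trsp cannot be told apart here. Cells of each genotype were left untreated or given LPS for 4 h. The dose of LPS on the arrays and the age of the mice are not given in the sources used here. Replicates are numbered 1 to 3 in each group as biological replicates, without naming the mice or cultures, so the p-values measure only how far these samples scatter, and part of that scatter may be technical. Trsp was not analysed here, and the arrays therefore do not check the genotype labels.

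LPS binds the receptor Toll-like receptor 4 (TLR4) on macrophages, which signals along 2 arms. The adaptor MyD88 leads to the transcription factor NF-κB and to genes of cytokines, chemokines and their feedback inhibitors within minutes to hours. The adaptor TRIF (Ticam1) leads to interferon-β, which acts back on the cell through its own receptor and turns on a large set of antiviral genes. Selenoproteins include glutathione peroxidases and thioredoxin reductases, enzymes that remove peroxides and keep protein thiols reduced, and reactive oxygen species arise during LPS signalling. The question is whether the transcriptional response to LPS is kept, or altered in size, when macrophages cannot make selenoproteins.

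Most of the LPS response was shared by the genotypes, and no gene passed the test for a different response. At an adjusted p under 0.05 (limma, Benjamini-Hochberg over all genes) the interaction was called for 0 of 18193 genes, 0% of those tested, and the smallest adjusted p was 0.0766. At an unadjusted p under 0.05 there were 555 genes (3.05%), of which 308 (1.69%) had a higher and 247 (1.36%) a lower change in ΔTrspM than in control BMDMs. If no gene differed, a threshold of 0.05 would on average pass a larger share of genes than 3.05%. This fit does not pair same-numbered arrays, so the spread between replicate numbers enters its p-values. In the limma fit that pairs them, 791 of 18193 genes had an unadjusted p under 0.05. The changes of the 3 same-numbered pairs of arrays did not overlap between the genotypes for 1526 genes (8.39%), with 835 (4.59%) higher and 691 (3.8%) lower in ΔTrspM BMDMs. With no difference, 3 values would not overlap 3 others for a share of 0.1 on average, which is above 8.39%. The methods' t-test on the same-numbered LPS changes called 0 genes after adjustment as well, with 688 at an unadjusted p under 0.05. By contrast LPS changed 2844 genes (15.6%) in control BMDMs, of which 1290 (7.09%) rose and 1554 (8.54%) fell, and 2874 genes (15.8%) in ΔTrspM BMDMs, of which 1326 (7.29%) rose and 1548 (8.51%) fell. Of the genes that rose, 983 did so in both genotypes, which is 76.2% of the control list and 74.1% of the ΔTrspM list. Of those that fell, 1142 were shared (73.5% and 73.8%). A missed threshold does not show that responses were equal. Without pairing, the 95% interval of the interaction lay within a 2-fold difference for 30.5% of all genes and within a 4-fold difference for 85.2%. Differences under 2-fold were thus not bounded for most genes by this fit, in which the spread between replicate numbers enters the intervals.

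Single arrays stood apart, and each of them enters the interaction. The array of untreated control replicate 2 had high signals of interferon-stimulated genes. On it 46 of 52 such genes were at least 2-fold above both other untreated control arrays, whereas 2.17% of all genes were. The same held for 10 of 24 effector genes, 8 of 22 inflammatory cytokine genes, 8 of 21 chemokine genes and 6 of 18 feedback inhibitor genes. The array of LPS-treated ΔTrspM replicate 2 was dim, with 47.7% of its probe sets under a signal of 16 against 16.1% to 28.8% on the others, and a mean signal of 199.7 against 492 to 861. The array of LPS-treated control replicate 2 was the next dimmest by probe sets, with 28.8% under 16 and a mean signal of 492.1, and had 5.73% of genes at least 2-fold below both others of its group, against 6.89% for LPS-treated ΔTrspM replicate 2. These arrays had the lowest array weights in limma, 0.484 and 0.433, and untreated control replicate 2 had 0.71. Quantile normalization brought the 12 arrays to 1 distribution. All levels below are log2(signal + 16), on which a value of 4 is a signal of 0, so that fold changes of dim genes are understated. The interaction was called for 0 genes without untreated control replicate 2, for 1 gene (Gm26844) without LPS-treated ΔTrspM replicate 2, and for 0 genes without both of these, with 603, 684 and 717 genes at an unadjusted p under 0.05. Without LPS-treated control replicate 2 it was called for 0 genes, with 621 at that p. Fits that leave out 1 array do not pair same-numbered arrays, so a level that those arrays share enters their values, here and below. Macrophage markers were high on all arrays. The 9 macrophage markers, among them Adgre1, Csf1r and Cd68, had summed signals of 67400 to 80540 over all 4 groups. Those of 8 stromal markers ranged from 476 to 7347 in untreated control and from 906 to 8251 in untreated ΔTrspM BMDMs. After LPS they ranged from 4221 to 4917 in control and from 2942 to 9388 in ΔTrspM BMDMs. Summed signals of 8 neutrophil markers were 4702 to 19210, those of 5 dendritic cell and 4 endothelial markers at most 638, and those of 4 mast cell, 6 lymphoid and 4 erythroid markers at most 331.1. The lymphoid marker Cd2, the erythroid marker Alas2, the dendritic cell marker Ccr7 and the endothelial marker Pecam1 were under a signal of 16 on all arrays of at least 1 group. The stromal marker Pdgfrb itself rose with LPS, by 4.45 in control and 2.99 in ΔTrspM BMDMs, so the stromal sums do not measure cell content alone. The part of the stromal cells, whose markers varied most, in any result was not tested.

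How far the response was kept in size was described over the LPS-responsive genes. These are the 2459 genes (13.5%) whose LPS change, averaged over the genotypes, was at least 2-fold with an adjusted p under 0.05. With equal groups and an equal spread on all arrays, this average is independent of the interaction, so that picking genes on it does not pick them for a difference. The array weights in limma ran from 0.433 to 3.82, so this holds here only in part. The p-values of both also rest on the same spread of a gene. The selection by a 2-fold average change itself leaves little room for opposite signs. The 2 LPS changes share no array. Across genes they correlated with Pearson's r = 0.866 over all 18193 genes (Spearman's rho 0.732). Over the responsive genes r was 0.975, a value set in part by pooling genes picked for rises with genes picked for falls. It was 0.913 over those that rose (rho 0.808) and 0.755 over those that fell (rho 0.601). Within bands of the average rise, which narrow the range further, r was 0.231 for rises of 1 to 2, 0.0638 for 2 to 3, −0.0764 for 3 to 4 and 0.771 for 4 and over (log2). These are descriptions across genes, which are not independent replicates. Of the responsive genes 1124 (6.18%) rose and 1335 (7.34%) fell. Among those that rose, the median LPS change was 1.76 (log2) in control and 1.70 in ΔTrspM BMDMs, and among those that fell it was −1.42 and −1.37. When the interaction was given the sign of the response, so that a negative value means a smaller response in ΔTrspM cells, its median was −0.05, with quartiles of −0.29 and 0.22. For comparison, the 95% interval of a single responsive gene reached 1.07 (median) to either side. The 89 genes that rose by 4 or more (log2) had medians of 4.89 in control and 5.31 in ΔTrspM BMDMs, while the median of their interactions was 0.11, with quartiles of −0.32 and 0.72 and 39 of the 89 below 0. Without untreated control replicate 2 the median signed interaction was −0.19, and it was 0.61 with no scaling of the arrays, a setting in which the median interaction of all genes was −0.59.

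**Figure D1:**
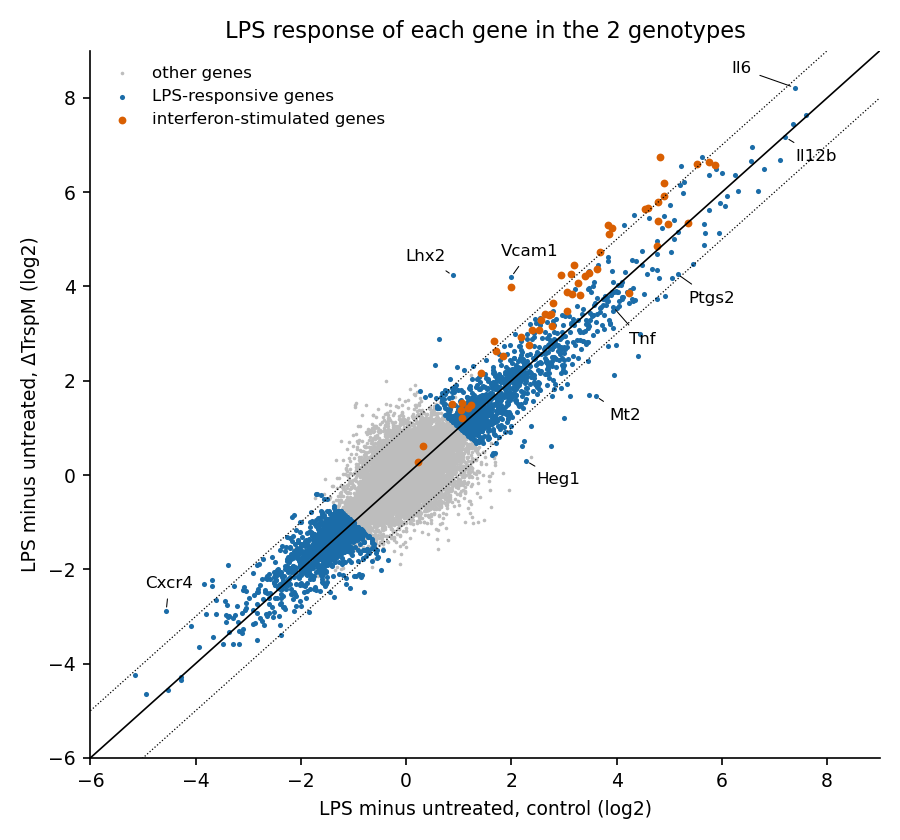
LPS change of each of 18193 genes in control (x axis) and ΔTrspM BMDMs (y axis), both as differences of mean log2(signal + 16) between 3 LPS and 3 untreated arrays. The solid line marks equal changes and the dotted lines a 2-fold difference. Responsive genes (blue) follow the line from −5.15 for Cd300lb to 7.60 for Il1a on the control axis, and the interferon-stimulated genes (orange) lie mostly above it.

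The genes with the strongest responses rose to similar levels in both genotypes. Il6, which encodes the cytokine interleukin-6, had untreated log2 signals of 6.99, 7.40 and 5.86 in control and 5.96, 6.49 and 5.06 in ΔTrspM BMDMs. LPS brought them to 14.10, 14.25 and 14.06 in control and 14.02, 14.02 and 14.13 in ΔTrspM BMDMs. The groups overlapped with and without LPS. The changes of same-numbered arrays were 7.10, 6.85 and 8.20 in control and 8.06, 7.53 and 9.07 in ΔTrspM BMDMs, higher in ΔTrspM for each number, although the ranges overlapped. The interaction was 0.84 (95% interval −0.42 to 2.09, adjusted p from limma 1.00), and in the fit that pairs same-numbered arrays its unadjusted p was 0.0992 in limma (adjusted p 1.00). Il12b, the p40 subunit of interleukin-12, rose by 7.21 in control and 7.17 in ΔTrspM BMDMs, and Il1a by 7.60 and 7.63. Shisa3 (7.34 and 7.44), the orphan nuclear receptor Nr4a3 (6.25 and 6.37), the activation marker Cd69 (6.57 and 6.97), the endothelin gene Edn1 (6.80 and 6.48) and the colony-stimulating factor gene Csf2 (6.68 and 6.02) were among the other leading responses. Csf2 after LPS was at 9.65, 12.52 and 11.19 in control and at 10.76, 10.73 and 10.33 in ΔTrspM BMDMs, so the control arrays enclosed all ΔTrspM arrays. Several of these genes ended close to the highest signal on an array, which was 14.22 to 14.25, and the 99th percentile of genes was 13.33 to 13.41. The part of such a ceiling in the similar end levels was not tested.

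Tnf, Il1b, Cxcl1 and Cxcl2 are the cytokine and chemokine genes that the study set side by side in the genotypes. Tnf, tumor necrosis factor, was at 9.02, 10.90 and 9.63 in untreated control and at 9.93, 10.87 and 10.15 in untreated ΔTrspM BMDMs. With LPS it was at 13.68, 13.83 and 13.82 and at 13.81, 14.06 and 13.79. It rose by 3.93 in control and 3.57 in ΔTrspM BMDMs, an interaction of −0.35 (95% interval −1.61 to 0.90). Il1b, interleukin-1β, rose by 5.22 and 6.55, an interaction of 1.33 (−0.57 to 3.23). Its untreated control arrays were at 8.11, 10.30 and 7.09, with replicate 2 high, and without that array the interaction was 0.43 (−0.58 to 1.43). Cxcl1 and Cxcl2 encode chemokines that draw neutrophils. Cxcl1 rose by 5.76 and 6.37. Cxcl2 rose by 3.20 and 3.19, and its interaction of −0.01 had an interval from −2.41 to 2.39, and its untreated control arrays ranged from 9.15 to 12.89 (replicate 2). Without that array the interactions were 0.07 for Cxcl1, −0.88 for Tnf (−1.76 to 0.01) and −1.08 for Cxcl2 (−2.58 to 0.42). The promoter of Cxcl2 is shown because it holds 2 copies of a site of the kind that NF-κB binds, both within 100 bases before the start of the gene. The sequence is the RefSeq window of the 250 bases before the start (GRCm38.p6, chr5:90903649-90903898, plus strand, 5′ to 3′), and capitals mark the letters GGG, NN, TT, N and CC read in this order, searched on both strands (N is any base).
Cxcl2: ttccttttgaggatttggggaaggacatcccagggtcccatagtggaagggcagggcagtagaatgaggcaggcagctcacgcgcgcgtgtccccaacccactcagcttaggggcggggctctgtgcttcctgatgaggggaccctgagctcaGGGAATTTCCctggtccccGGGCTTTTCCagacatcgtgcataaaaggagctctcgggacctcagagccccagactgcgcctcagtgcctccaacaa
In the RefSeq windows of 300 bases (250 before to 50 after the start) these letters occurred for 5.48% of all 27025 genes with a promoter. They occurred for 7 of 13 chemokine genes with a window (53.8%) and for 5 of 8 NF-κB and IκB genes (62.5%). A match of letters is a description of the sequence only.

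Along the signalling path from receptor to target, each group responded in both genotypes. The lists below were chosen with earlier results of these data known, and each is described by its counts beside the 15.6% and 15.8% of all genes called in either genotype. Of 18 measured genes of the TLR4 receptor complex, its adaptors and kinases, 7 rose in control and 7 in ΔTrspM BMDMs, and the median interaction was −0.05. Myd88 rose by 1.45 and 1.52, and the kinase gene Irak2 by 2.11 and 1.98. The kinase gene Ikbke had changes of 1.99 and 2.01 that did not pass (adjusted p 0.0716 and 0.0668 from limma). Ticam1, the TRIF adaptor gene, rose from a mean of 7.99 to 9.19 in control and from 7.85 to 9.69 in ΔTrspM BMDMs, an interaction of 0.64 with an interval from −0.02 to 1.30. Tab3, an adaptor of the kinase TAK1, was the 1 member with an unadjusted p under 0.05 (0.0315), at 8.81 and 8.88 before and after LPS in control and at 9.24 and 8.59 in ΔTrspM BMDMs. Its interaction was −0.72 (−1.36 to −0.08, adjusted p from limma 1.00). Of 10 NF-κB subunit and IκB genes, 9 rose in control and 8 in ΔTrspM BMDMs. Rel rose by 3.52 and 3.38, Nfkb2 by 3.69 and 3.55, Relb by 2.69 and 2.60, and Nfkbiz by 3.42 and 3.20. The interaction of 9 of the 10 was below 0, with values from −0.36 (Bcl3) to 0.11 (Nfkbia) and a median of −0.14, against 0.01 over all genes. The median was −0.56 without untreated control replicate 2, where 4 of the 10 genes were at least 2-fold above both other arrays of their group, and −0.03 (4 of 10 above 0) without LPS-treated control replicate 2.

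Of 18 feedback inhibitor genes, which limit the response once it has begun, 11 rose in each genotype and 1 fell, and the median interaction was −0.03. It was −0.35 without untreated control replicate 2 (4 of 18 above 0, 2 genes at an unadjusted p under 0.05) and 0.15 without LPS-treated control replicate 2. Tnfaip3, the ubiquitin-editing enzyme A20, rose by 3.02 in control and 3.37 in ΔTrspM BMDMs, and Socs1 by 5.17 and 5.16. Socs3 had the lowest interaction of the list at −0.79, with rises of 5.66 and 4.87. Of 23 genes of immediate-early transcription factors, 9 rose in control and 8 in ΔTrspM BMDMs, 5 fell in each, and the median interaction was 0.07, or −0.35 with arrays centred on their medians, where that of all genes was −0.18. It was −0.13 without untreated control replicate 2. Of 22 inflammatory cytokine genes, 21 rose in control and 20 in ΔTrspM BMDMs, with median LPS changes of 3.77 and 3.71. Interactions ranged from −0.86 for Il23a, a subunit of interleukin-23, to 1.33 for Il1b, and their median was −0.33, a value that moved between −0.39 and −0.03 as single arrays were left out. Ifnb1, interferon-β, rose by 4.02 and 4.04, and Il10, an anti-inflammatory cytokine, by 3.62 and 3.05. Of 21 chemokine genes, 14 rose in control and 16 in ΔTrspM BMDMs. Ccl3 rose by 4.11 and 4.10 and Ccl4 by 4.36 and 4.54, whereas the interferon-driven chemokine genes Cxcl10 (4.33 and 5.52) and Cxcl11 (4.14 and 5.30) had interactions of 1.19 and 1.16. The median interaction of the chemokines was 0.20, −0.07 with no scaling of the arrays, and −0.36 without untreated control replicate 2, on which 8 of the 21 were at least 2-fold above both other arrays.

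Among 24 genes of effector enzymes and acute-phase proteins, 15 rose in each genotype, and the median interaction was −0.12, or −0.47 without untreated control replicate 2. Lcn2, an iron-scavenging lipocalin, rose by 3.95 and 3.88. Acod1, which makes itaconate, went from a mean of 8.14 to 13.23 in control and from 8.54 to 13.54 in ΔTrspM BMDMs, which did not pass at its spread (adjusted p 0.052 and 0.0557 from limma). Nos2, the inducible nitric oxide synthase, rose by 4.77 and 3.74, an interaction of −1.03, the lowest of the list. Ptgs2, the prostaglandin synthase COX-2, was the 1 member with an unadjusted p under 0.05 (0.0246). It was at 8.91, 8.96 and 8.46 in untreated control and at 10.05, 9.11 and 9.68 in untreated ΔTrspM BMDMs, so that all ΔTrspM arrays were higher. LPS brought it to 13.90, 14.08 and 13.83 in control and to 13.80, 13.98 and 13.82 in ΔTrspM BMDMs, and the groups overlapped. These end levels were close to the highest signal on an array (14.22 to 14.25), and the part of such a ceiling in the interaction was not tested. The interaction of Ptgs2 was −0.91 (95% interval −1.67 to −0.14, adjusted p from limma 1.00), and its second probe set gave −1.05. Of 18 adhesion and costimulation genes, 11 rose in each genotype, and of 18 genes of apoptosis control, 8 rose in control and 9 in ΔTrspM BMDMs.

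**Figure D2:**
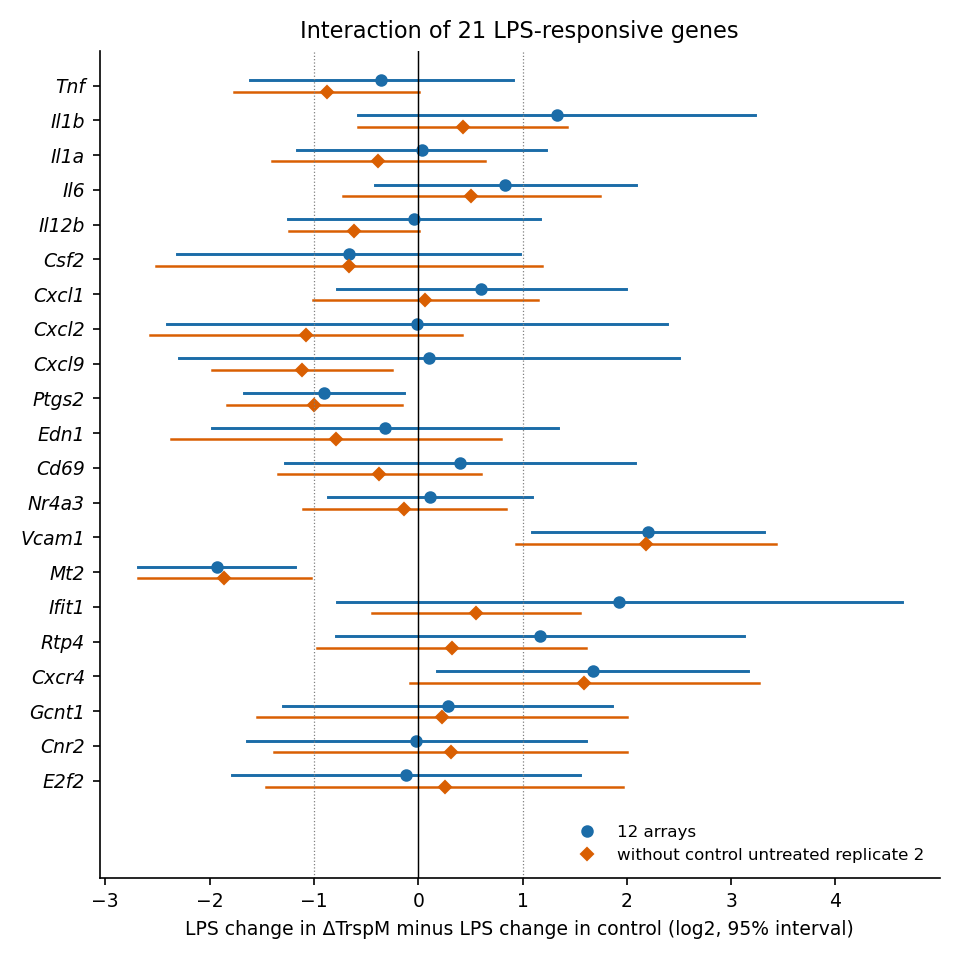
Interaction (x axis, log2: LPS change in ΔTrspM minus LPS change in control BMDMs) of 21 responsive genes with its 95% interval, from all 12 arrays (blue) and without untreated control replicate 2 (orange). Dotted lines mark a 2-fold difference. The interval of Ifit1 narrows from −0.78 to 4.63 to −0.45 to 1.55 without that array, whereas Vcam1 and Mt2 stay away from 0.

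The lists of interferon-stimulated genes had the highest median interactions of the 22 functional lists, and these were carried by 1 array. Of 42 antiviral genes, 35 rose in control and 41 in ΔTrspM BMDMs, and all 35 were among the 41. The median LPS change was 2.87 in control and 3.73 in ΔTrspM BMDMs, and the interaction was above 0 for 41 of the 42 genes, with a median of 0.73. None passed the test, and 1 of 42 (2.38%, against 3.05% of all genes) had an unadjusted p under 0.05. Of 10 interferon-inducible GTPases, which act at the vacuoles of intracellular pathogens, 9 rose in each genotype, and the median interaction was 0.79. The difference lay in the untreated control cells. The median log2 signal of the 42 genes was 8.70, 11.42 and 8.43 on untreated control arrays 1 to 3, and 8.53, 9.19 and 8.02 on the untreated ΔTrspM arrays. After LPS it was 12.85, 12.84 and 12.88 in control and 12.60, 12.83 and 12.67 in ΔTrspM BMDMs. Untreated control replicate 2 therefore stood above all other untreated arrays and below all LPS arrays. The 10 GTPases had medians of 7.34, 10.56 and 7.60 on the same 3 control arrays, and of 7.23 to 7.83 on the untreated ΔTrspM arrays. In the 3 comparisons of same-numbered arrays the median interaction of the 42 genes was −0.09, 2.26 and 0.14. Without untreated control replicate 2 it was −0.12 with 12 of 42 genes above 0, and that of the GTPases was 0.01 with 6 of 10 above 0. With replicate 2 left out of all 4 groups and the replicate number as a block, the medians were 0.03 (25 of 42 above 0) and 0.17. With no scaling of the arrays, where the median of all genes was −0.59, they were −0.000669 and 0.22. What set that array apart was not tested.

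**Figure D3:**
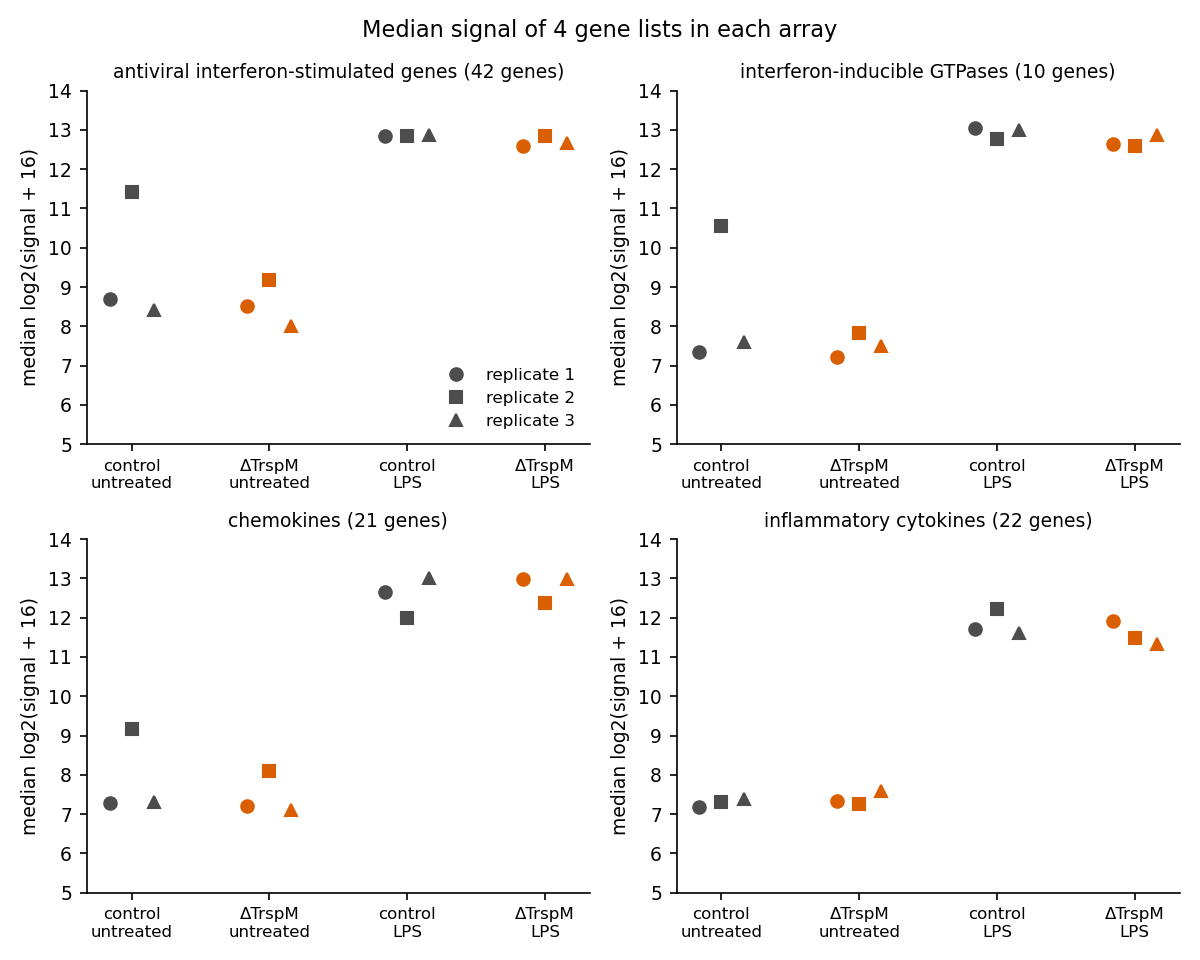
Median log2(signal + 16) of 4 gene lists (y axes) on each array by group (x axes), with control arrays in grey, ΔTrspM arrays in orange, and circles, squares and triangles for replicates 1, 2 and 3. Untreated control replicate 2 lies at 11.42 for the antiviral genes and 10.56 for the GTPases, apart from its group, and its median over the inflammatory cytokines (7.31) lies within its group, although 8 of those 22 genes were at least 2-fold above both other arrays there.

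Ifit1, an antiviral protein that binds viral RNA ends, shows the pattern in a single gene. It was at 7.12, 11.46 and 7.57 in untreated control and at 6.80, 7.60 and 6.27 in untreated ΔTrspM BMDMs. After LPS the 6 arrays lay between 13.46 and 13.67. It rose by 4.83 in control and 6.75 in ΔTrspM BMDMs, and the interaction of 1.93 (95% interval −0.78 to 4.63) became 0.55 (−0.45 to 1.55) without untreated control replicate 2. Rtp4, an interferon-induced transmembrane chaperone, was at 11.16, 13.45 and 10.65 in untreated control, so that replicate 2 already had the level of the LPS arrays (13.28 to 13.52). It rose by 2.84 in ΔTrspM BMDMs (adjusted p 0.0109 from limma), its change of 1.67 in control BMDMs did not pass (adjusted p 0.101), and its interaction was 1.17, and 0.32 without that array. Cxcl9, a chemokine gene of the interferon-γ type, was at 4.25, 8.06 and 4.57 in untreated control. Its interaction was 0.10 with all arrays and −1.11 (−1.98 to −0.25) without replicate 2. Sp110, a nuclear body protein, was the member of the antiviral list with an unadjusted p under 0.05 (0.011). Untreated it was at 6.71, 8.18 and 6.69 in control and 6.53, 5.02 and 4.98 in ΔTrspM BMDMs, and after LPS all arrays lay between 9.07 and 9.73. Its interaction of 1.99 (0.55 to 3.42) was 1.49 (0.26 to 2.73) without untreated control replicate 2, and its 2 other probe sets gave 0.97 and −0.20. The promoter window of Ifit1 is shown for its 2 elements of the kind bound by interferon-activated factors. The 250 bases lie at chr19:34640639-34640888 (GRCm38.p6, RefSeq, plus strand, 5′ to 3′), and capitals mark GAAA, NN and GAAA read in this order, searched on both strands.
Ifit1: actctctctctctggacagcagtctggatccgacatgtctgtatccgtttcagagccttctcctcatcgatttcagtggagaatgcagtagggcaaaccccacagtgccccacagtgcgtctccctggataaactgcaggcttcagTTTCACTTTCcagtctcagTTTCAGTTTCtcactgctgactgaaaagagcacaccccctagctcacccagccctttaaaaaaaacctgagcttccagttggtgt
The window of 300 bases held these letters, on either strand, for 13 of 33 antiviral genes (39.4%) and 6 of 7 GTPase genes (85.7%), against 3.99% of all 27025 genes. Among responsive genes with a window the share was 9.82% of 896 that rose and 2.53% of 1107 that fell.

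**Figure D4:**
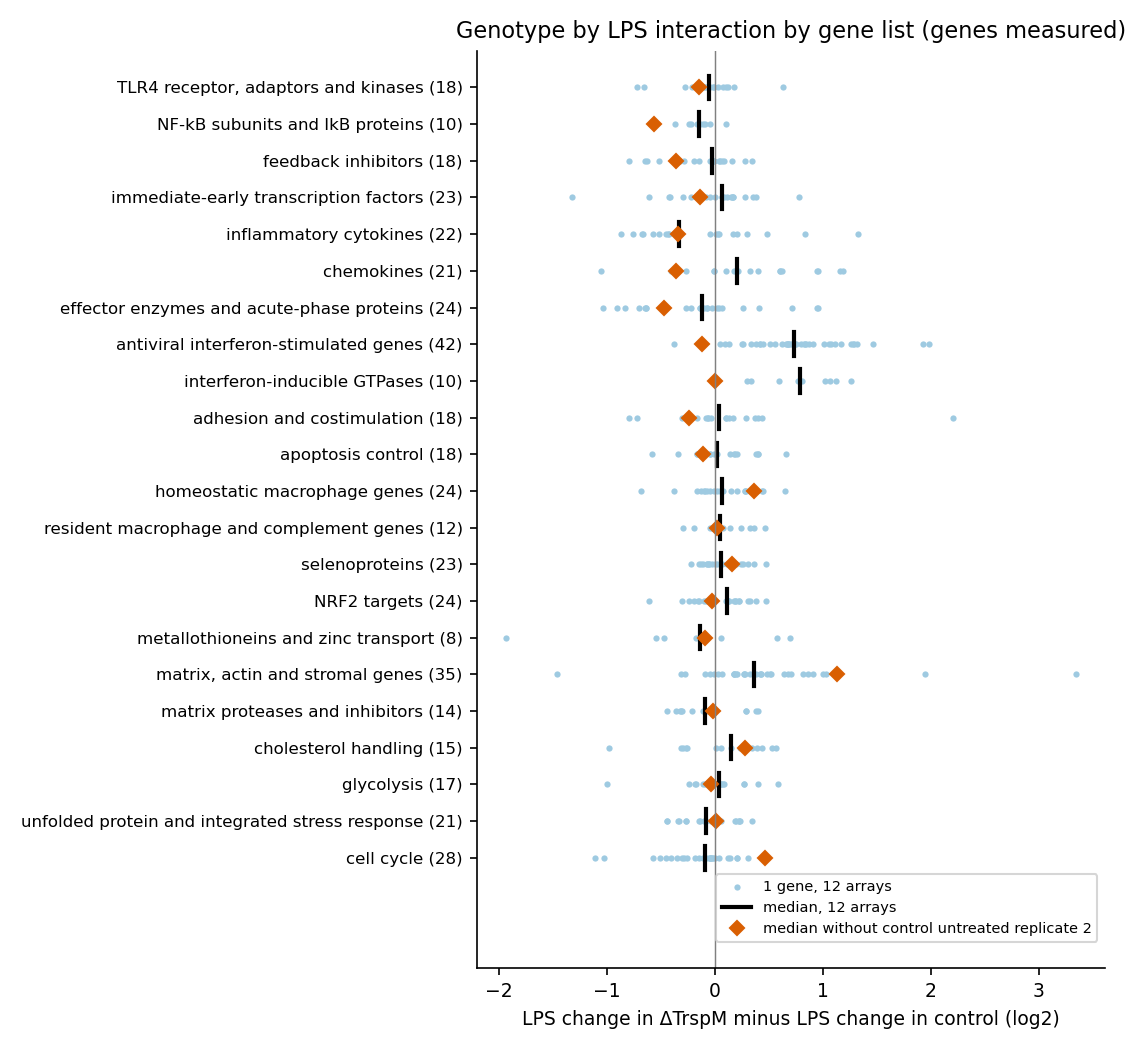
Interaction of each measured gene (light blue, log2) in 22 gene lists, with the list's median from 12 arrays (black bar) and without untreated control replicate 2 (orange diamond); the number of genes measured is in brackets. The medians of the antiviral genes and the GTPases move from 0.73 and 0.79 to −0.12 and 0.01, and that of the matrix genes from 0.37 to 1.13.

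For some genes the arrays of the genotypes were apart in untreated cells and closer after LPS. Vcam1 encodes an adhesion molecule bound by leukocyte integrins. In untreated control BMDMs it was at 9.63, 10.18 and 10.63 and in untreated ΔTrspM BMDMs at 7.04, 6.92 and 8.20, so the groups did not overlap. With LPS it was at 12.41, 11.80 and 12.22 in control and at 11.72, 11.34 and 11.69 in ΔTrspM BMDMs, again all lower but by less. Vcam1 rose by 2.00 (adjusted p 0.00332 from limma) in control and by 4.20 (adjusted p 3.68e-05) in ΔTrspM BMDMs. The interaction was 2.20 (95% interval 1.09 to 3.32, unadjusted p 0.00112, adjusted p 0.850) and did not pass over all genes. Its 2 other probe sets gave 1.09 and 0.87, and over 27 alternative settings the interaction ranged from 1.34 to 2.61. The value was 2.18 without untreated control replicate 2, and on that array Vcam1 lay between the other untreated control arrays. Its same-numbered changes did not overlap between the genotypes.

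Mt2, a metallothionein that binds zinc and copper, had higher values on the untreated ΔTrspM than on the untreated control arrays. It was at 8.93, 9.06 and 9.63 in untreated control and at 11.09, 11.06 and 11.02 in untreated ΔTrspM BMDMs. LPS-treated cells were at 12.78, 13.14 and 12.52 in control and at 12.95, 12.80 and 12.43 in ΔTrspM BMDMs, where the groups overlapped. Mt2 rose by 3.60 (adjusted p 7.42e-06 from limma) in control and by 1.67 (adjusted p 0.00102) in ΔTrspM BMDMs. The interaction was −1.93 (−2.68 to −1.18, unadjusted p 0.000142, adjusted p 0.369), between −2.45 and −1.73 over the alternative settings, and −1.86 without untreated control replicate 2. Mt1, its neighbour in function, was at 11.93 and 12.84 before and after LPS in control and at 12.53 and 12.97 in ΔTrspM BMDMs, an interaction of −0.47 (−1.40 to 0.47). By their brightest probe sets, none of the 6 other measured genes of metallothioneins and zinc transport had an unadjusted p under 0.05; the zinc importer gene Slc39a14 had −0.54 and the zinc exporter gene Slc30a1 0.70 on its brightest probe set. The dimmer probe set of Slc30a1 gave 1.00 with an unadjusted p of 0.0031, and the 3 dimmer ones of Slc39a14 gave 0.07, 0.02 and −1.04. The promoter window of Mt2 is shown for its 3 copies of the core to which the metal-responsive factor MTF-1 binds, with capitals for TGCACNC or TGCGCNC on either strand (GRCm38.p6, RefSeq, chr8:94172368-94172617, plus strand, 5′ to 3′).
Mt2: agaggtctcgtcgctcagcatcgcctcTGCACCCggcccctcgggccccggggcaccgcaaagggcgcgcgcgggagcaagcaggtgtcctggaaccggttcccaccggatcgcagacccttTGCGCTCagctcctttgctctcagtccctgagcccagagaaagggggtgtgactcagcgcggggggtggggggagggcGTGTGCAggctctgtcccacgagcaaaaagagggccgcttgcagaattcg
These short letters occurred in the windows of 28.2% of all genes, of 36.3% of the measured genes and of 4 of 6 genes of the metallothionein and zinc list (66.7%). The glycolysis list had a like share, with 11 of 17 genes (64.7%).

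**Figure D5:**
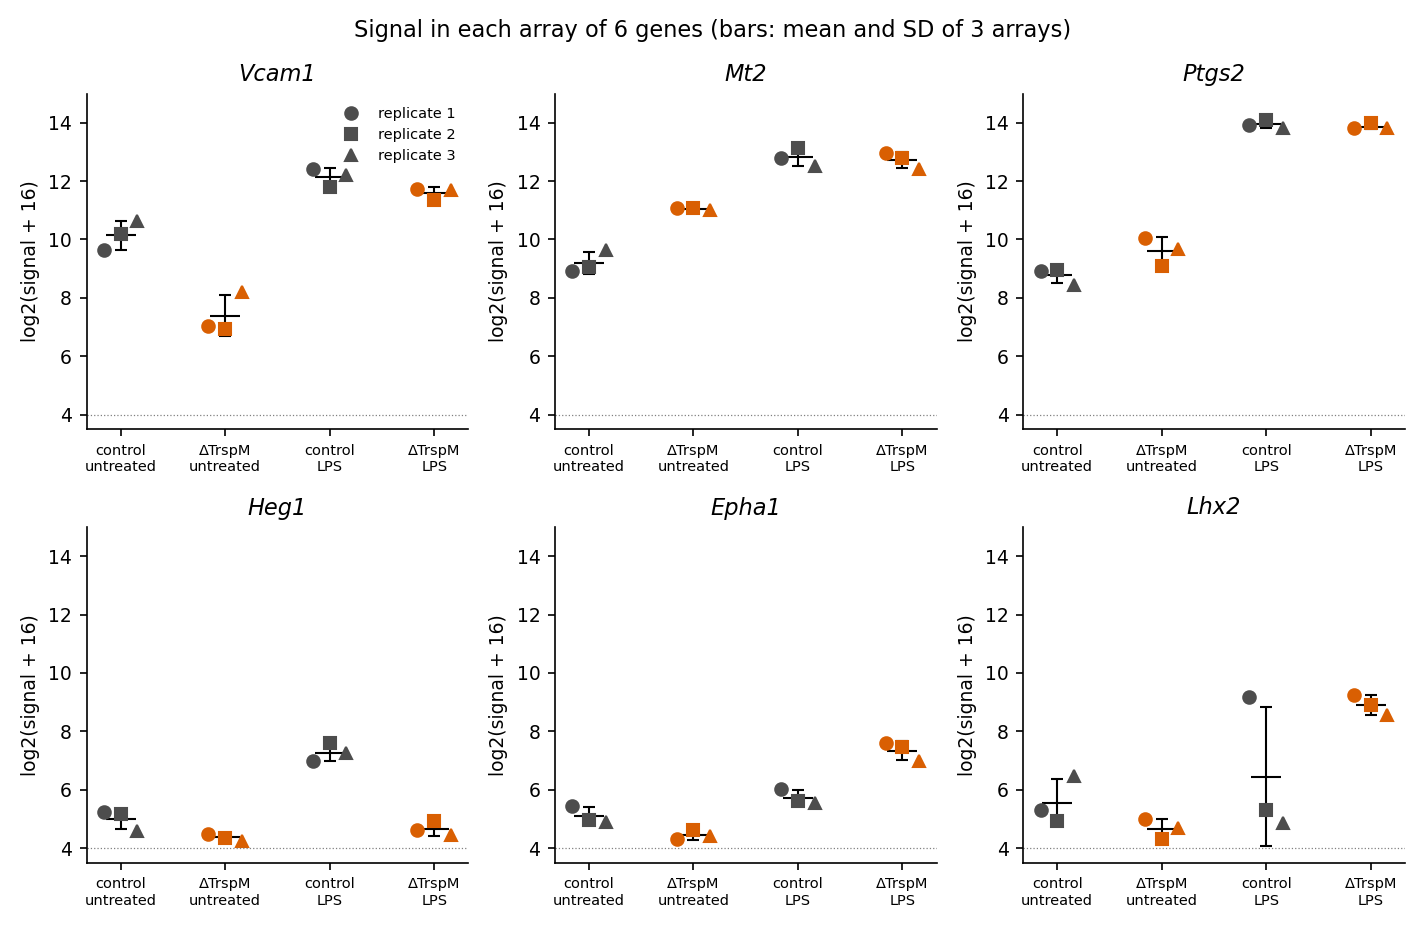
Log2(signal + 16) of 6 genes (y axes, not starting at 0) on each array by group, with bars for the mean and SD of 3 arrays; the dotted line at 4 is a signal of 0. The genotypes lie apart in untreated cells and closer after LPS for Vcam1 and Mt2. For Heg1 and Epha1 they lie apart without LPS and further apart after it, for Epha1 in the opposite order. In Lhx2 control LPS replicate 1 lies at 9.17 with the ΔTrspM arrays.

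The largest interactions were mostly those of dim genes. Of 127 genes (0.698%; 77 higher, 0.423%, and 50 lower, 0.275%) with an unadjusted p under 0.01, 94 (74.0%) had a mean log2 signal under 6, against 36.1% of all genes, and 17 (13.4%) were responsive, against 13.5% of all genes. If no gene differed, a threshold of 0.01 would on average pass a larger share of genes than 0.698%. In the limma fit that pairs same-numbered arrays, 174 of 18193 genes had an unadjusted p under 0.01. In 95 of the 127 (74.8%) the LPS changes of the genotypes had opposite signs, against 23.4% of all genes. The 127 were picked on the difference of these changes, and such a choice itself favours opposite signs. Only 4 genes were called in both genotypes with opposite signs, namely Fibcd1, Gm26844, Muc16 and Oas1f, and all had mean log2 signals between 4.88 and 5.77. They are named because of these calls. Gm26844, an uncharacterized locus, had the largest interaction among genes with an unadjusted p under 0.01, at 2.49 (1.78 to 3.19, adjusted p 0.0766). It was at 5.13, 5.49 and 5.38 in untreated control and 4.13, 4.24 and 4.22 in untreated ΔTrspM BMDMs, and after LPS at 4.29, 4.43 and 4.42 and at 5.90, 5.21 and 6.07. The genotypes thus stood in opposite order with and without LPS on all arrays, at signals close to the floor. Without LPS-treated ΔTrspM replicate 2 it passed (2.75, adjusted p 0.0111).

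Epha1, a receptor tyrosine kinase, was at 5.46, 4.96 and 4.88 in untreated control and 4.32, 4.63 and 4.41 in untreated ΔTrspM BMDMs. With LPS it was at 6.02, 5.61 and 5.56 in control and 7.60, 7.45 and 6.98 in ΔTrspM BMDMs, all above the control arrays. It rose by 2.89 in ΔTrspM BMDMs (adjusted p 2.94e-05 from limma), its change of 0.63 in control BMDMs did not pass, and the interaction was 2.26 (1.52 to 3.00, adjusted p 0.169). The 2 other probe sets of Epha1 gave −0.06 and 0.55. Heg1, a transmembrane protein of cell junctions, was at 5.24, 5.16 and 4.59 in untreated control and 4.49, 4.36 and 4.25 in untreated ΔTrspM BMDMs. With LPS, levels were 6.98, 7.59 and 7.25 in control and 4.64, 4.92 and 4.45 in ΔTrspM BMDMs. It rose by 2.28 in control BMDMs (adjusted p 0.00011), its change of 0.30 in ΔTrspM BMDMs did not pass, and the interaction was −1.98 (−2.71 to −1.24, adjusted p 0.296). Tmem132e, another membrane protein gene, had an interaction of −2.28 (adjusted p 0.0766) on its brighter probe set and of 1.90 on its other, and the mean of both gave −0.19. Other genes filled up by size at an unadjusted p under 0.01 were Tmem151a (2.44), Phgr1 (2.41), Snhg11 (2.38), the red cell transcription factor gene Klf1 (2.26), Vstm2a (2.10), Fam169a (1.95) and Otud7a (1.94) on the higher side. On the lower side they were the pancreatic polypeptide gene Ppy (−2.43), Dpf3 (−2.37), 5330434G04Rik (−2.30), Leap2 (−2.28), Marchf10 (−2.18), Fibcd1 (−2.16), Oas1f (−2.11) and Plcl1 (−2.02). Where these genes had further probe sets, those gave other values: 1.05 for Dpf3, of the opposite sign (unadjusted p 0.0485), −0.76 for 5330434G04Rik, −0.01 for Marchf10, −0.08 for Plcl1, −0.03 for Snhg11, and −0.29 and −0.28 for Otud7a.

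Among brighter genes that LPS lowered, Cxcr4, the receptor of the chemokine CXCL12, had higher signals after LPS on the ΔTrspM arrays. Untreated it was at 11.86, 12.15 and 11.97 in control and 12.32, 11.59 and 11.90 in ΔTrspM BMDMs. After LPS it was at 7.09, 7.65 and 7.55 in control and at 8.95, 10.32 and 7.87 in ΔTrspM BMDMs, all 3 above control, with the highest on the dim array of replicate 2. Cxcr4 fell by 4.56 in control and by 2.89 in ΔTrspM BMDMs, and the interaction of 1.67 (0.18 to 3.16, unadjusted p 0.0312, adjusted p from limma 1.00) was 1.04 (0.02 to 2.05) without that array. Other strongly lowered genes had like changes: the glycosyltransferase gene Gcnt1 (−4.94 in control and −4.66 in ΔTrspM BMDMs), Cdca7 (−4.53 and −4.57), the sestrin gene Sesn1 (−4.29 and −4.35), the cannabinoid receptor gene Cnr2 (−4.27 and −4.29), the cell cycle transcription factor gene E2f2 (−3.48 and −3.59), Otulinl (−3.67 and −3.44) and Snx24 (−3.94 and −3.65). Cd300lb, an activating receptor of myeloid cells, fell by 5.15 and 4.24, and Rasgrp3 by 4.10 and 3.19. Of 24 homeostatic macrophage genes, 10 fell in each genotype, and their median interaction was 0.07, or −0.11 with arrays centred on their medians. It was 0.37 (19 of 24 above 0) without untreated control replicate 2, 0.26 without LPS-treated ΔTrspM replicate 2 and −0.16 without LPS-treated control replicate 2. Of 12 genes of resident macrophages and complement, 1 rose and 1 fell in each.

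Outside inflammation, no gene of the selenoprotein and NRF2 lists had an interaction with an unadjusted p under 0.05. Of 23 selenoprotein genes, 1 rose and 1 fell in control and 1 rose in ΔTrspM BMDMs, and their interactions ranged from −0.22 to 0.47 with a median of 0.06; for 12 of the 23 the 95% interval lay within 2-fold. Txnrd1, thioredoxin reductase 1, had LPS changes of 0.26 and 0.20 that did not pass, and an interaction of −0.05 (−0.71 to 0.60). Gpx1, glutathione peroxidase 1, had changes of −0.52 and −0.55 that did not pass, and an interaction of −0.02 (−0.86 to 0.81). Of 24 targets of the antioxidant regulator NRF2, 1 rose in each genotype, and the median interaction was 0.11, with values from −0.61 to 0.48 and 6 of 24 intervals within 2-fold. The median was −0.03 without untreated control replicate 2. Genes of glycolysis (17 genes, median 0.04) and of the unfolded protein and integrated stress response (21 genes, median −0.08) had 11 and 15 intervals within 2-fold and no called interaction. With arrays centred on their medians, the list medians were −0.22 for selenoproteins, −0.11 for NRF2 targets and −0.31 for glycolysis, against −0.18 for all genes. Without untreated control replicate 2 they were 0.17 for selenoproteins, −0.03 for glycolysis and 0.01 for the stress response, and without LPS-treated control replicate 2 that of the selenoproteins was −0.07. Lyz2, whose promoter drives Cre, had changes of −0.08 and 0.13 that did not pass, and an interaction of 0.20 (−0.34 to 0.75).

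Genes of the extracellular matrix, actin and stromal cells varied widely between arrays of a group. Of 35 measured genes, 1 rose in control and 3 in ΔTrspM BMDMs, the interaction was above 0 for 29 with a median of 0.37, and 95% intervals reached 2.57 (median) to either side. The fit behind these intervals does not pair same-numbered arrays, so the spread between replicate numbers enters them. The list holds genes that the study chose on these samples, so its direction is not independent evidence. The median log2 signal of the 35 genes was 8.40, 6.29 and 8.63 in untreated control, 9.01, 7.04 and 9.73 in untreated ΔTrspM, 8.27, 6.94 and 8.31 in LPS-treated control and 9.48, 8.19 and 9.84 in LPS-treated ΔTrspM BMDMs, lowest in replicate 2 of each group. Within same-numbered arrays the median interaction was 0.49, 0.15 and 0.48. It was 1.13 without untreated control replicate 2 and 1.01 without LPS-treated ΔTrspM replicate 2. It was below 0 without untreated control replicate 3 (−0.12), untreated ΔTrspM replicate 2 (−0.25), control LPS replicate 2 (−0.06) or ΔTrspM LPS replicate 3 (−0.02), and with no scaling of the arrays (−0.35). Leaving out 1 array breaks the match of numbers between groups, so the low level shared by replicate 2 arrays enters these leave-out medians. Among the 35 genes, the interactions were 1.03 for Col1a1 (a collagen chain), 1.00 for Bgn (biglycan), 0.40 for Timp3 (a protease inhibitor), 1.95 for Tagln (transgelin), 0.65 for Ccn2 (connective tissue growth factor) and 0.07 for Cdh11 (a cadherin), and all of their intervals spanned 0. Tagln had the widest difference after LPS, at 8.07, 6.79 and 5.51 in control and 10.92, 8.57 and 9.97 in ΔTrspM BMDMs, with an interaction interval of −1.16 to 5.06. The lowest interaction of the list was −1.46, for the stromal marker gene Pdgfrb, which rose by 4.45 in control and 2.99 in ΔTrspM BMDMs. The second probe set of Pdgfrb gave −0.89. Lhx2, a homeobox transcription factor, was at 5.29, 4.93 and 6.46 in untreated control and 4.98, 4.32 and 4.71 in untreated ΔTrspM BMDMs. After LPS it was at 9.17, 5.30 and 4.85 in control and 9.25, 8.90 and 8.56 in ΔTrspM BMDMs. It rose by 4.23 in ΔTrspM BMDMs (adjusted p 0.00867 from limma), the change of 0.88 in control did not pass, and the interaction of 3.35 (0.57 to 6.13, unadjusted p 0.0225, adjusted p 1.00) rests on control LPS replicates 2 and 3, since replicate 1 had the ΔTrspM level. Vsig4, a complement receptor of resident macrophages, lay between 6.82 and 8.44 on the 6 ΔTrspM arrays and between 9.96 and 10.60 on the 6 control arrays, and its interaction was −0.19 (−1.33 to 0.95). Of 28 cell cycle genes, 2 fell in control and 3 in ΔTrspM BMDMs, and the median interaction was −0.08, which was 0.47 without untreated control replicate 2 and −0.68 without LPS-treated control replicate 2. These genes, too, were lowest in replicate 2 of each group, and within same-numbered arrays their median interaction was −0.07, −0.20 and −0.05.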

How the data were processed

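RNA of 12 BMDM samples was hybridized to Affymetrix GeneChip arrays. Expression Console was used by the authors for normalization, and the deposited values are linear intensities of 45101 probe sets. How probes were summarized is not stated in the sources. After 64 control probe sets were left out, signals were quantile-normalized and log2(signal + 16) was taken. Probe sets with 1 gene symbol (34945) were kept, and those with several (932) or none (9160) were not. The brightest probe set stood for a gene, which gave 18193 genes. No filter on level was applied.

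The 4 labelled groups were fitted together with limma 3.58.1 in R 4.3.3 (8 residual degrees of freedom), with Benjamini-Hochberg adjustment over all genes and a threshold of 0.05. The 95% intervals come from this moderated fit, which does not pair same-numbered arrays. With 3 arrays a side an exact two-sided p cannot go below 0.1, so p-values rest on the pooled spread. Same-numbered arrays deviated from their group means together (residual correlations of 0.126 to 0.442 in the 12 pairs of arrays that share a genotype or a treatment), so the numbers were taken to pair the cultures, and a fit with them as a block was an alternative.

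The question, the gene lists (22 functional lists and those of cell type markers, 480 genes measured) and the rule for naming genes were chosen with earlier results of these data known. The rule took the 10 largest interactions each way at an unadjusted p under 0.01, the 10 largest average LPS responses each way, from each list the 4 genes of smallest p and 2 of largest response, and genes of the study. Acod1, Ccl3, Ccl4, Cxcl10, Ifnb1, Il10, Lcn2, Muc16, Myd88, Nfkbia, Nos2, Relb and Tnfaip3 fall outside it and were named after their values were seen. The fit was tested on simulated data with known interactions. It called 1 of 50 genes given an interaction of 1 (log2) and 13 of 50 given 1.5. Of those given 2 and 4 it called 31 of 50 and 45 of 50. The simulated noise was independent between arrays, without the spread that same-numbered arrays share here. The number of arrays limits the precision.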

Additional observations from a re-analysis of the deposited data

How the results depend on the processing

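The interaction was called for 0 genes under all alternatives except a pseudocount of 4, with 3 genes (Fibcd1, Gm26844 and Tmem132e), limma array weights, with 1 (Gm26844), and single arrays left out, with 0 to 1. The fit with replicate numbers as a block (the pairing) called 0 interactions, and 791 genes had an unadjusted p under 0.05; the block raised the LPS calls to 4108 in control and 4086 in ΔTrspM BMDMs and changed no call of an interaction. LPS calls in control BMDMs were 893 with no scaling of arrays, 4963 over all probe sets, 824 by the methods' t-test, 1504 and 1819 with the block and without replicate 1 or 3 of all groups, and 1912 to 3114 with single arrays left out. In ΔTrspM BMDMs they were 4946 over all probe sets, 1376 by the t-test, 1615 with the block and without replicate 1, and 1704 (without untreated ΔTrspM replicate 1) to 3075. The average response was called for 9833 probe sets, and for 4196 to 5040 genes with single arrays left out. Of the calls in ΔTrspM BMDMs 46.1% were higher, against 33% with arrays centred on their medians and 7.88% with no scaling; for the average response the shares were 41.7% and 11.9% with no scaling. The median signed interaction of responsive genes was 0.106 with centring on medians and 0.615 with no scaling, where the median interaction of all genes was −0.18 and −0.59, and it was −0.195 (without untreated control replicate 2) to 0.0431 with single arrays left out. The correlation of the LPS responses was 0.793 with a pseudocount of 4, 0.929 with 64, 0.939 over genes whose mean log2 signal reached 6, 0.799 with the block and without replicate 1, and 0.832 to 0.86 with single arrays left out. An alternative chosen after seeing the data left out untreated control replicate 2 and LPS-treated ΔTrspM replicate 2 together: 0 interactions were called, the median signed interaction was −0.248 and the correlation 0.82. LPS changes that turned were those of Pgam1 in control (0.0064, centring on medians), Nfkbid (−0.41) and Nr4a2 (−0.31) in ΔTrspM BMDMs (no scaling), and Epha1 in control (−0.012) and Xbp1 in ΔTrspM BMDMs (0.012) with the mean of a gene's probe sets. The cause was not tested. No interaction of a named gene with an unadjusted p under 0.05 turned. Signals near the floor of 16 limit what can be said of dim genes.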
